A study of Mus musculus with 13 samples.

Results

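The 8 genes described here encode secreted proteins that bind and hold back ligands of the bone morphogenetic protein (BMP) and activin families, or relatives of such proteins: Grem1, Nog, Chrd, Chrdl1, Bmper, Fst, Fstl1 and Fstl3. They were taken by gene symbol from a table of 43346 genes, in which each symbol occurred on a single row, and their levels were followed in 13 RNA-seq libraries of mouse lung fibroblasts. The series describes the cells of all 4 groups as Col1a1-GFP fibroblasts, that is, cells in which a type I collagen promoter drives a green fluorescent protein, so they are a collagen-expressing population and not every lung fibroblast. There were 2 sham libraries, 3 libraries from day 14 and 5 from day 30 of bleomycin injury, and 3 libraries from day 14 of pneumonectomy. Bleomycin damages lung tissue and is used to model fibrosis, whereas in pneumonectomy a lung is taken out and the tissue left behind expands. The sham and bleomycin libraries carry the label Col1a1-GFP mice and an age of 8 weeks, and the header of the deposited table calls the groups of all 13 libraries young. The pneumonectomy libraries are labelled as primary sorted fibroblasts with no strain or age in weeks, and a separate preparation cannot be told apart from the operation. What the sham procedure was is not given in the sources used here. The labels do not say whether replicates came from separate animals, so the p-values measure the spread between these libraries, which may be technical. The comparisons ask how these genes differ between a lung that scars, at an early and a later time, a lung that regrows, and an uninjured lung.

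BMPs signal through paired serine/threonine kinase receptors to SMAD1, SMAD5 and SMAD9, and activins to SMAD2 and SMAD3. Antagonists act outside the cell: gremlin, noggin and the chordins bind BMPs and keep them from their receptors, and follistatins do so mainly with activins. Tolloid proteases cut chordin and set its ligand free, and BMPER, which binds BMPs too, can either hold back or help BMP signals. In the lung, BMP4 and its antagonists take part in branching during development, and gremlin 1 has been studied as a factor in pulmonary fibrosis.

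The labels were first checked against sex-linked and cell type genes. All 5 bleomycin day 30 libraries had Xist at 19.9 to 29.2 RPKM (reads scaled for the length of the gene and the depth of the library) and no value above 0 for 4 Y-linked genes (Ddx3y, Eif2s3y, Kdm5d, Uty). The 3 bleomycin day 14 and 3 pneumonectomy libraries had Xist at 0.0222 RPKM or less and Ddx3y at 9.91 to 23.8 RPKM. Sham replicate 2 was like these, with 0.0147 RPKM of Xist and 11.4 of Ddx3y. In sham replicate 1 both were present (Xist 15.9 RPKM, Ddx3y 2.14 RPKM). Sex and the day 30 group therefore cannot be told apart in comparisons with that group, and results that rest on sham are given without sham replicate 1 where its removal changes a call. The 10 fibroblast markers summed to 3003 to 4678 RPKM in every library, but single markers moved in both directions. At day 14 against sham, 2 of the 10 were called higher and 5 lower, with a median log2 difference of -0.68. Of all genes, 33.4% were called higher and 29.9% lower. The mean of Dcn went from 1619 to 139 RPKM and that of Col1a1 from 554 to 1373 RPKM. The endothelial sum of 10 genes was 20.4 to 23.9 RPKM in sham, 269 to 533 at bleomycin day 14, 8.43 to 12.4 at day 30 and 17.0 to 36.4 after pneumonectomy. Most of the sham sum was Tek, with a mean of 15.7 RPKM in sham, 6.09 at day 30 and 4.63 after pneumonectomy. Against sham, 9 of the 10 genes were called higher and 1 lower after pneumonectomy, where 22.6% and 19.3% of all genes were. At day 30, 1 of the 10 was called lower and 9 were not called, where 14.1% of all genes were called lower. The macrophage sum, over 9 genes in the table, was 25.3 to 33.2 RPKM in sham, 132 to 446 at day 14, 207 to 727 at day 30 and 23.9 to 38.1 after pneumonectomy. Lyz2 was the largest part, with a mean of 15.8 RPKM in sham, 210 at day 14, 368 at day 30 and 20.3 after pneumonectomy. From day 14 to day 30, 1 of the 9 genes was called higher and 2 lower, against 28.9% and 30.7% of all genes. Epithelial markers stood at 1334 RPKM in day 30 replicate 3 against 7.86 to 16.5 in the other day 30 libraries, and at 508, 101 and 47.0 RPKM in pneumonectomy libraries A, B and C against 11.1 and 16.0 in sham. Mesothelial markers summed to 12.5 to 43.5 RPKM after pneumonectomy, 2.02 to 3.13 in sham, 2.63 to 4.86 at day 14 and 4.35 to 21.0 at day 30. Mural and smooth muscle markers summed to 860 to 1204 RPKM after pneumonectomy, 445 to 879 in sham, 364 to 459 at day 14 and 341 to 514 at day 30. The part of these 3 lists in the pneumonectomy results was not tested. No gene of the endothelial, macrophage or epithelial list was at 0 in all libraries of a group. Depth, estimated from the lowest values, was 67.6 M to 200.2 M reads per library. It was 132.6 M to 200.2 M in the day 30 libraries and at most 99.8 M in every other library. Depth, like sex, therefore cannot be told apart from the day 30 group.

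The sequences before the start sites of Grem1, Bmper and Chrd are shown because Grem1 and Bmper rose and Chrd fell after bleomycin. They are the 250 bases before the RefSeq start on GRCm38.p6, read 5′ to 3′ on the gene's strand, with matches to the motifs below in capitals. Grem1 lies at chr2:113758649-113758898 (minus strand), Bmper at chr9:23222826-23223075 (plus strand) and Chrd at chr16:20732877-20733126 (plus strand).
Grem1: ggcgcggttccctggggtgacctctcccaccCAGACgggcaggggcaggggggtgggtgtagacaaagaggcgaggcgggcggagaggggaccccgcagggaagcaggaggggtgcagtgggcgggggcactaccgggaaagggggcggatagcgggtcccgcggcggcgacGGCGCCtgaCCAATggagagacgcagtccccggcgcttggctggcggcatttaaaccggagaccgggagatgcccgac
Bmper: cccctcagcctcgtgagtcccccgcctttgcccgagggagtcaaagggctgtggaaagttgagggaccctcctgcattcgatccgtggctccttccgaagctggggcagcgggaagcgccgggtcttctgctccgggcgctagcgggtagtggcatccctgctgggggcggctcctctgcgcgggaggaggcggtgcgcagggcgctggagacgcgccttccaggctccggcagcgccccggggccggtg
Chrd: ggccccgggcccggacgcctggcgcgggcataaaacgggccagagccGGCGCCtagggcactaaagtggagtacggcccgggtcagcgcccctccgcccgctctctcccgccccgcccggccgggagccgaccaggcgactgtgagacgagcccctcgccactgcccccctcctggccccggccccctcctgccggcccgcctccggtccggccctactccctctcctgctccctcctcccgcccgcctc
Both strands were searched for 6 motifs, with overlapping matches allowed: the SMAD GC-rich site GGCGCC (found in 9.59% of 32851 windows of the same length before mouse start sites), the SMAD box CAGAC (42.2%), the CCAAT box CCAAT (33.8%), the AP-1 site TGANTCA (6.75%), the TEAD site CATTCC (12.6%) and the TATA box TATAAA (12.4%). The Grem1 window held the GC-rich SMAD site, the CCAAT box and the SMAD box, with first bases 78, 69 and 219 bases before the start. The Chrd window held the GC-rich SMAD site at 203 bases before the start, and the Bmper window held none of the 6. GC content was 72% for Grem1, 71.6% for Bmper and 78% for Chrd, against a median of 52.4% over all windows. These matches describe letters and show no binding. Of the 8 genes, 5 were in the RefSeq table used; Nog, Chrdl1 and Fst were not.

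Grem1, which encodes gremlin 1, a BMP antagonist of the DAN family (chr2:113746164-113758646, minus strand, mm10), was close to silent in sham and had the largest fitted rise of the 8 genes after bleomycin. Its level was 0.0785 and 0.0302 RPKM in the sham libraries, an estimated 22 and 9 reads. At bleomycin day 14 it was 28.7, 21.0 and 25.5 RPKM in replicates 1 to 3. The 2 groups did not overlap, and every day 14 library lay far above both sham libraries. At day 30 the 5 libraries gave 11.7, 21.7, 13, 27.4 and 28 RPKM. After pneumonectomy Grem1 was 0.929, 0.400 and 0.427 RPKM, above both sham libraries but far below every bleomycin library. Grem1 thus passed the filter of 1 RPKM in at least 2 libraries through the bleomycin libraries alone, where it is high. In the mean RPKM, Grem1 was 461-fold higher than sham at day 14, 375-fold at day 30 and 10.8-fold after pneumonectomy. Against sham replicate 2 alone these ratios were 830.4, 675 and 19.4, and against sham replicate 1 alone 319, 259 and 7.45. On the log2 scale of scaled RPKM plus 0.1, which understates the change of low genes, the difference from sham was 7.14 ± 0.41 (SE; limma, adjusted p = 1.49e-07, with an adjusted p below 0.05 taken as a call) at day 14 and 6.89 ± 0.38 (limma, adjusted p = 5.30e-06) at day 30. The pneumonectomy difference was 2.30 ± 0.41 (limma, adjusted p = 0.00116). It was 0.67 and was no longer called when 1 RPKM was added instead of 0.1 (adjusted p = 0.129). Bleomycin day 14 exceeded pneumonectomy by 4.84 ± 0.37 (limma, adjusted p = 5.58e-07), and day 30 did so by 4.59 ± 0.33 (adjusted p = 1.30e-06). Days 30 and 14 did not differ beyond their spread, with a log2 difference of -0.25 ± 0.33 (adjusted p = 0.529). In bulk samples, fewer cells of a type and less RNA per cell cannot be told apart.

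Endothelial markers were high in the day 14 group. Day 14 replicate 1 had the highest Grem1 (28.7 RPKM) and the lowest endothelial and macrophage sums of its group, 269 and 132 RPKM. At day 30 the endothelial sum was 8.43 to 12.4 RPKM, below both sham libraries, while Grem1 was 11.7 to 28 RPKM. Tek, a gene of that sum, had a mean of 6.09 RPKM at day 30 against 15.7 in sham. At day 30, replicate 1 had the lowest Grem1 (11.7 RPKM) and the lowest macrophage sum of its group, 207 RPKM against 422 to 727. Most of its sum was Lyz2 (149 RPKM), whereas its Ptprc, 0.955 RPKM, lay within the 0.827 to 1.08 RPKM of the group. Day 30 replicate 3 had the highest macrophage sum of the group, 727 RPKM, with Grem1 at only 13 RPKM. Replicates 4 and 5 had the highest Grem1 (27.4 and 28 RPKM) at macrophage sums of 422 and 512 RPKM. Replicate 2 had 21.7 RPKM of Grem1 at a sum of 484 RPKM. The macrophage sum was above sham in both bleomycin groups and the endothelial sum was above sham at day 14. The part of either in the Grem1 result was not tested.

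**Figure D1:**
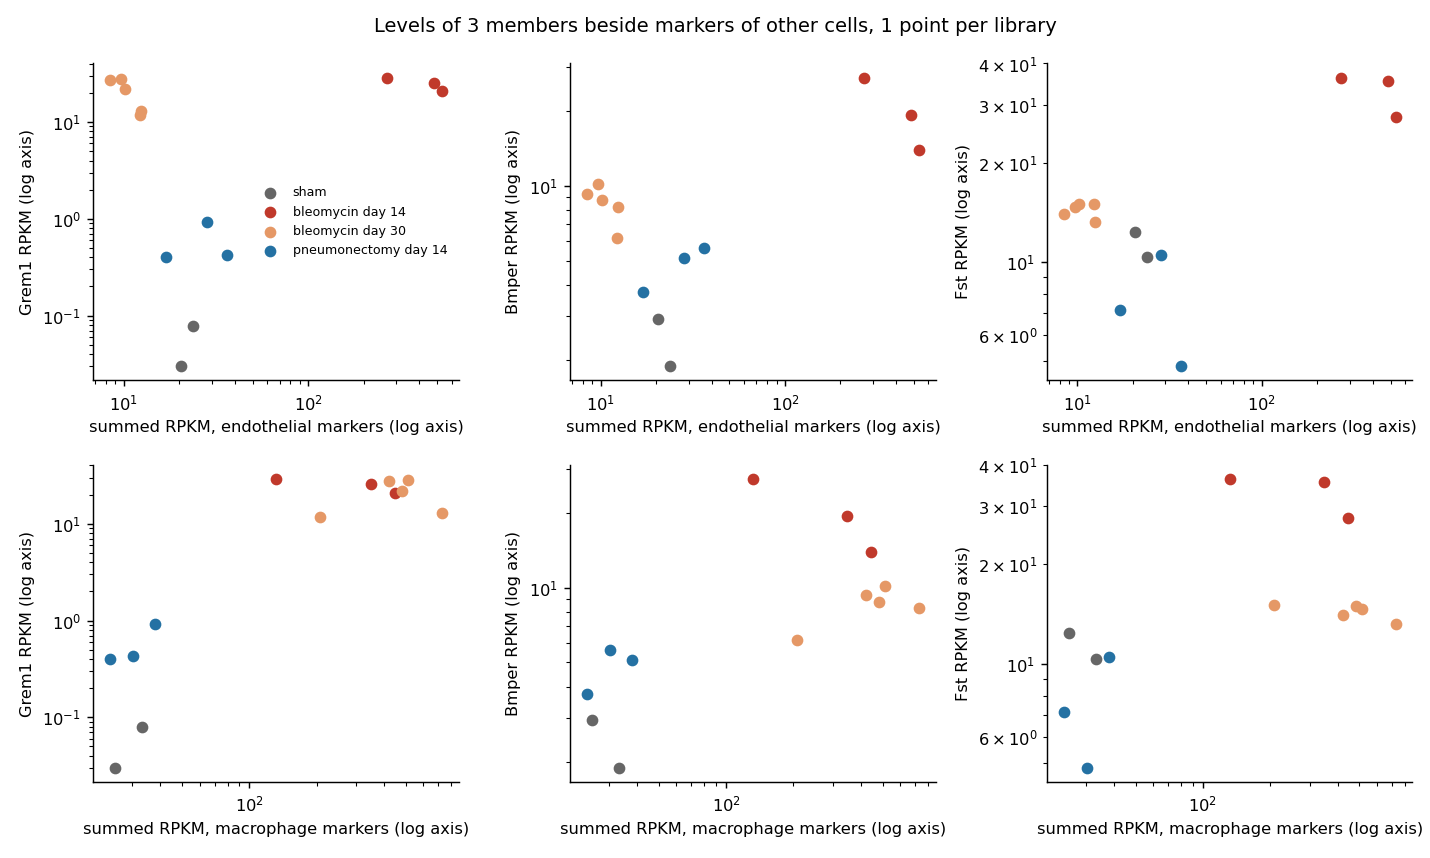
RPKM of Grem1, Bmper and Fst (vertical, log axis) against the summed RPKM of endothelial markers (top) and macrophage markers (bottom; horizontal, log axes), with 1 point per library. The endothelial sum is 269 to 533 at bleomycin day 14 and at most 36.4 in every other library, while Grem1 is 11.7 or more in every bleomycin library.

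**Figure D2:**
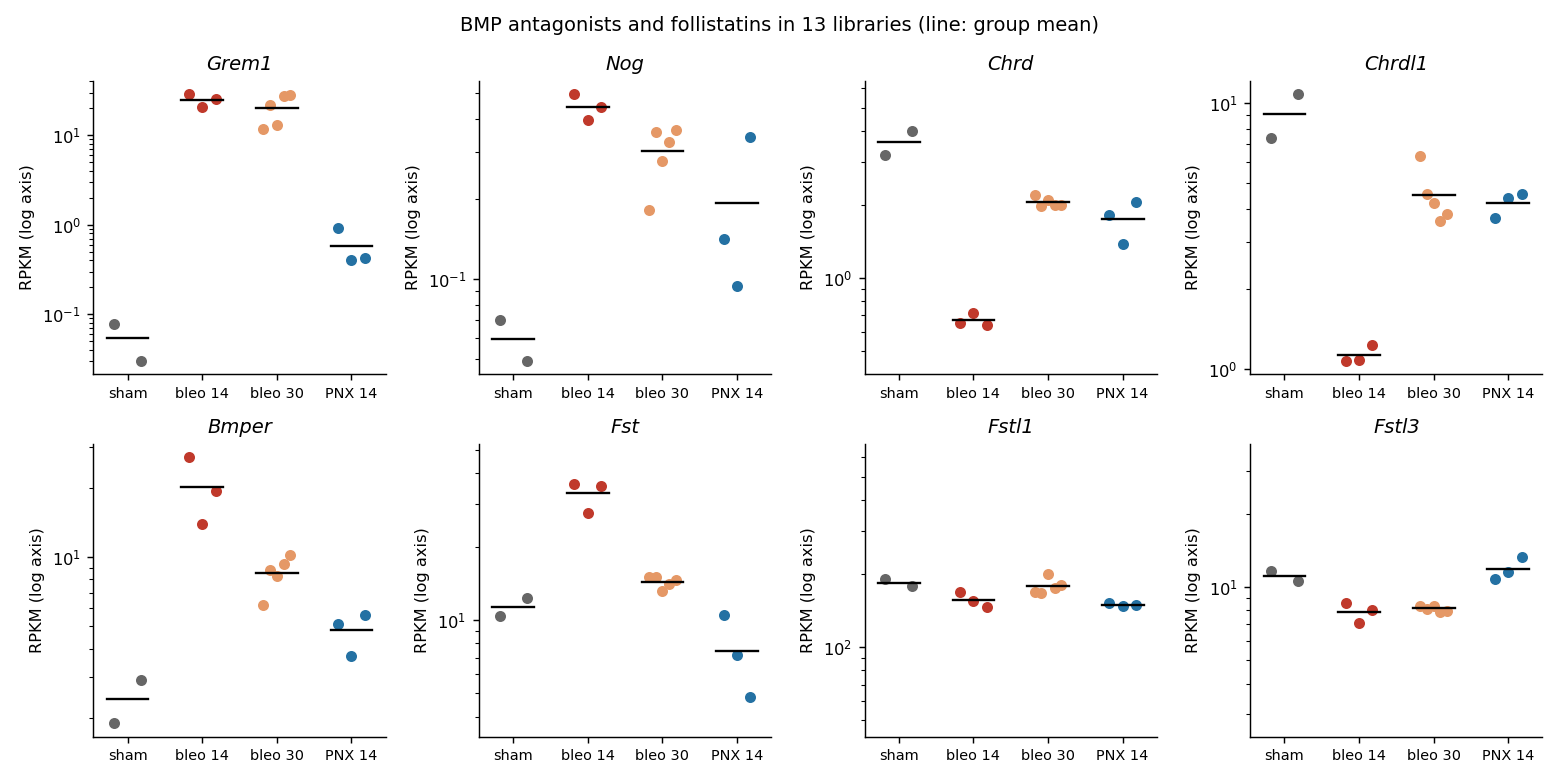
Deposited RPKM of each of the 8 genes in all 13 libraries (log axis; points are libraries, bars are group means; bleo 14, bleo 30 and PNX 14 are day 14 and day 30 after bleomycin and day 14 after pneumonectomy). Grem1 ranges from 0.0302 to 0.0785 in sham and from 11.7 to 28.7 in the bleomycin libraries, while Fstl1 stays between 146 and 199.9 in all libraries.

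Nog, which encodes noggin, another BMP antagonist (chr11:89300638-89302332, minus strand), stayed low throughout. Sham gave 0.0699 and 0.0492 RPKM, bleomycin day 14 gave 0.495, 0.396 and 0.445 RPKM, and day 30 gave 0.182, 0.357, 0.279, 0.329 and 0.363 RPKM. Pneumonectomy gave 0.142, 0.0939 and 0.342 RPKM. The 13 values rest on few reads: an estimated 8 and 6 in sham, 12 to 40 after pneumonectomy, and 41 to 121 at day 30. Nog was the only member below the filter of 1 RPKM in at least 2 libraries, so its test comes from a fit without a filter. In that fit it was higher than sham by 1.60 ± 0.32 at day 14 (limma, adjusted p = 0.00199) and by 1.24 ± 0.29 at day 30 (adjusted p = 0.0174). Either sham library left out ended the day 30 call, with 1.34 without replicate 1 (adjusted p = 0.0629) and 1.15 without replicate 2 (adjusted p = 0.110). Pneumonectomy gave 0.94 ± 0.32 against sham (adjusted p = 0.0593), and 1.20 without pneumonectomy library B (adjusted p = 0.0209). Bleomycin day 14 against pneumonectomy gave 0.66 ± 0.28 (adjusted p = 0.0895), and 1.01 without pneumonectomy library C (adjusted p = 0.00391).

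Chrd and Chrdl1, which encode chordin and chordin-like 1, moved the other way. Chrd (chr16:20733127-20742384, plus strand) was 3.18 and 4.02 RPKM in sham and 0.653, 0.718 and 0.643 RPKM at bleomycin day 14. At day 30 it was 2.18, 1.97, 2.08, 1.99 and 2.00 RPKM, between the other 2 groups and overlapping neither, and after pneumonectomy it was 1.80, 1.38 and 2.05 RPKM. Against sham it fell by 2.47 ± 0.14 at day 14 (limma, adjusted p = 1.14e-07), by 0.90 ± 0.12 at day 30 (adjusted p = 0.000572) and by 0.80 ± 0.14 after pneumonectomy (adjusted p = 0.000774). Between days 14 and 30 it rose by 1.58 ± 0.11 (limma, adjusted p = 3.12e-07). Day 14 was lower than pneumonectomy too (-1.67 ± 0.12, adjusted p = 3.76e-07), while day 30 and pneumonectomy differed by -0.09 ± 0.11 (adjusted p = 0.480).

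Chrdl1, which lies on the X chromosome (chrX:143285674-143394262, minus strand), was 7.41 and 10.8 RPKM in sham, 1.07, 1.08 and 1.23 RPKM at day 14, and 6.30, 4.55, 4.19, 3.60 and 3.84 RPKM at day 30. After pneumonectomy it was 3.69, 4.37 and 4.54 RPKM. Its lowest values were those of day 14 and its highest those of sham, with the day 30 and pneumonectomy groups overlapping each other. Chrdl1 fell by 3.11 ± 0.21 at day 14 (limma, adjusted p = 3.76e-07), by 1.12 ± 0.20 at day 30 (adjusted p = 0.00206) and by 0.86 ± 0.21 after pneumonectomy (adjusted p = 0.00766). With sham replicate 2 left out, the pneumonectomy difference was -0.59 and not called (adjusted p = 0.102). Day 14 was lower than pneumonectomy, with a log2 difference of -2.25 ± 0.19 (adjusted p = 1.20e-06). Day 30 and pneumonectomy differed by -0.26 ± 0.17 (adjusted p = 0.209), which was called when day 30 replicate 1 was left out (-0.39, adjusted p = 0.0226). Chrdl1 was 1.99 ± 0.17 higher at day 30 than at day 14 (limma, adjusted p = 1.80e-06), a comparison between groups of opposite Xist status. Chrd and Chrdl1 followed each other across the 13 libraries (Pearson r = 0.977, a description of libraries that share groups). The 10 fibroblast markers had a median log2 difference of -0.68 at day 14 against sham. The part of cell make-up in the Chrd and Chrdl1 results was not tested.

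Bmper, which encodes BMP-binding endothelial regulator (chr9:23223076-23485200, plus strand), rose in all injured groups. Its level was 1.89 and 2.93 RPKM in sham, 27.2, 13.9 and 19.3 RPKM at bleomycin day 14 and 6.16, 8.76, 8.24, 9.29 and 10.2 RPKM at day 30. After pneumonectomy it was 5.14, 3.73 and 5.62 RPKM. No 2 groups overlapped, and the order was day 14, day 30, pneumonectomy and sham, although day 30 and pneumonectomy did not pass the test of their difference (0.47 ± 0.23, adjusted p = 0.104). That difference was called on the deposited scale, that is, without scaling between libraries (0.81, adjusted p = 0.00810), with upper-quartile scaling (0.62, adjusted p = 0.0401), with the 2 groups fitted alone (adjusted p = 0.0409) and without day 30 replicate 1 (0.58, adjusted p = 0.0485). The log2 difference from sham was 2.75 ± 0.29 at day 14 (limma, adjusted p = 8.68e-06), 1.68 ± 0.27 at day 30 (adjusted p = 0.00132) and 1.20 ± 0.29 after pneumonectomy (adjusted p = 0.00683). Without sham replicate 1 the pneumonectomy difference was 0.90 (adjusted p = 0.0709). Day 14 exceeded pneumonectomy by 1.54 ± 0.26 (adjusted p = 0.000236). Day 30 was lower than day 14, with a log2 difference of -1.07 ± 0.23 (limma, adjusted p = 0.00200). The part of the endothelial sum, 269 to 533 RPKM at day 14, in the Bmper result was not tested.

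Fst encodes follistatin, which binds activins (chr13:114452290-114458951, minus strand). It was 10.3 and 12.3 RPKM in sham and 36.2, 27.6 and 35.5 RPKM at bleomycin day 14. At day 30 the 5 libraries lay at 15, 15, 13.2, 14 and 14.6 RPKM, and after pneumonectomy at 10.5, 7.14 and 4.83 RPKM. The day 14 libraries lay above all others, and sham and pneumonectomy overlapped. The endothelial sum was also highest at day 14 (269 to 533 RPKM), and its part in the Fst result was not tested. Fst rose by 1.29 ± 0.25 at day 14 (limma, adjusted p = 0.000830) and was lower at day 30 than at day 14 (-1.06 ± 0.20, adjusted p = 0.000739). Against sham, day 30 gave 0.22 ± 0.23 (adjusted p = 0.490) and pneumonectomy -0.44 ± 0.25 (adjusted p = 0.182). The pneumonectomy difference was called lower on the deposited scale (-0.66, adjusted p = 0.0363) and without pneumonectomy library A (-0.72, adjusted p = 0.0156). Fst was higher than after pneumonectomy both at day 14 (1.73 ± 0.22, limma, adjusted p = 3.10e-05) and at day 30 (0.66 ± 0.20, adjusted p = 0.0144), the latter not without pneumonectomy library C (0.37, adjusted p = 0.0611).

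Fstl1 and Fstl3, the follistatin-like members, had the smallest differences from sham at day 14. Fstl1 (chr16:37776873-37836514, plus strand) was the most abundant of the 8 per length in every library, at 177 to 189.9 RPKM in sham, 146 to 167 at day 14, 167 to 199.9 at day 30 and 148 to 151 after pneumonectomy. At day 14 it fell by 0.48 ± 0.11 (limma, adjusted p = 0.00278), a call that was lost on the deposited scale (-0.24, adjusted p = 0.0593). Day 30 gave -0.17 ± 0.10 against sham (adjusted p = 0.244), and pneumonectomy gave -0.08 ± 0.11 (adjusted p = 0.612), or -0.30 and a call on the deposited scale (adjusted p = 0.0285). Fstl3 (chr10:79777272-79782630, plus strand), which also binds activins, was 10.5 to 11.6 RPKM in sham, 7.07 to 8.60 at day 14, 7.91 to 8.38 at day 30 and 10.8 to 13.2 after pneumonectomy. It fell by 0.73 ± 0.10 at day 14 (adjusted p = 5.98e-05) and by 0.56 ± 0.09 at day 30 (adjusted p = 0.00146), and was called higher after pneumonectomy (0.32 ± 0.10, adjusted p = 0.0240). That last call was lost on the deposited scale (0.10, adjusted p = 0.424), with upper-quartile scaling, with the 2 groups fitted alone, without sham replicate 2 and without pneumonectomy library C. Fstl3 was below pneumonectomy at day 14 (-1.04 ± 0.09, adjusted p = 1.17e-06) and at day 30 (-0.87 ± 0.08, adjusted p = 5.90e-06). The 10 fibroblast markers had a median log2 difference of -0.68 at day 14 against sham. The part of cell make-up in the falls of Fstl1 and Fstl3 was not tested.

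**Figure D3:**
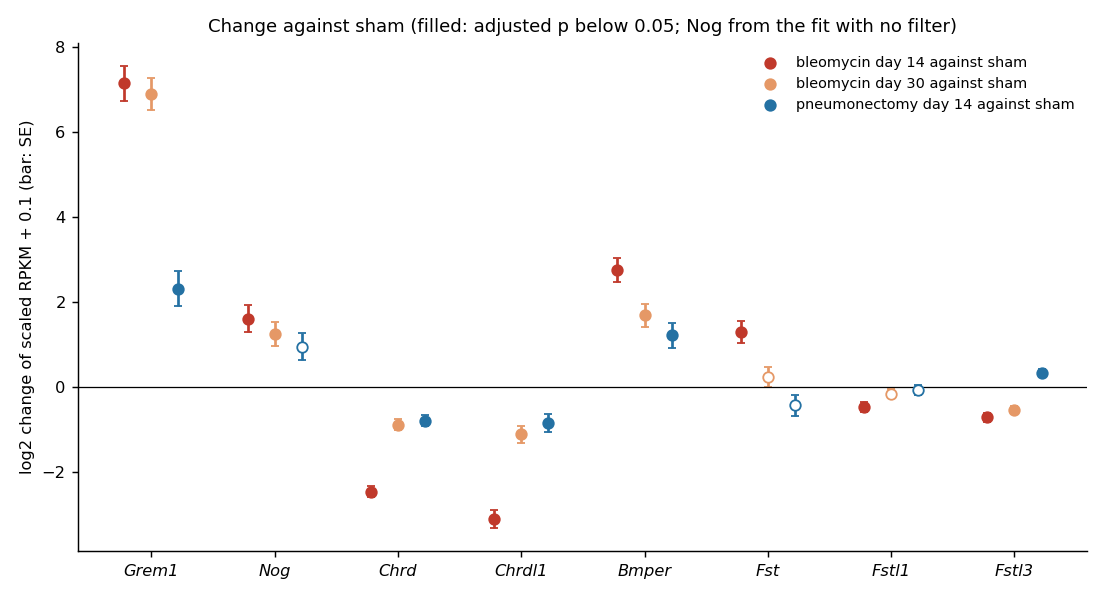
Log2 difference from sham of each gene (scaled RPKM plus 0.1; points are estimates, bars are standard errors) at bleomycin day 14, day 30 and after pneumonectomy. Grem1 is at 7.14, 6.89 and 2.30, and Chrd at -2.47, -0.90 and -0.80.

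Counted together, 3 of the 7 tested genes were called higher at day 14 than in sham and 4 lower, while of all 12938 genes tested 33.4% were called higher, 29.9% lower and 63.3% in either direction. At day 30 the count was 2 higher and 3 lower, against 14.8% and 14.1% of all genes and 28.8% in either direction. After pneumonectomy it was 3 higher and 2 lower, against 22.6%, 19.3% and 42.0%. Without sham replicate 2 the pneumonectomy count fell to 3 genes. Bleomycin day 14 and pneumonectomy differed in all 7 (3 higher and 4 lower at day 14), against 36.2%, 34.6% and 70.8%. From day 14 to day 30, 3 were called higher and 2 lower, against 28.9%, 30.7% and 59.6%, and between day 30 and pneumonectomy 2 were higher and 1 lower at day 30, against 28.5%, 29.0% and 57.6%. Day 30 without its replicate 1 gave 5 called genes against pneumonectomy. Between day 30 and pneumonectomy the members called higher numbered 4 on the deposited scale, where 7408 of all 12938 genes were called higher. With upper-quartile scaling they numbered 3, where 5285 of all 12938 genes were. Calls were common among all genes in these comparisons, so sizes are given beside the counts. The median absolute log2 difference from sham was 2.47 over the 7 genes and 0.44 over all genes at day 14, 0.90 and 0.20 at day 30, and 0.80 and 0.29 after pneumonectomy. Among the 7, Grem1 entered the fit only through its high bleomycin values, which bears on these counts and sizes. Comparisons with sham share the same 2 sham libraries.

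The make-up of the antagonist transcripts shifted as well. Summed over the 7 genes other than Fstl1, the level was 34.6 to 40.7 RPKM in sham, 71.7 to 103 at day 14, 49.4 to 67.0 at day 30 and 28.7 to 33.0 after pneumonectomy. Grem1 made up 0.0742% to 0.227% of this sum in sham, 27.9% to 29.2% at day 14, 23.4% to 42.4% at day 30 and 1.37% to 2.82% after pneumonectomy. Chrdl1 went from 21.4% to 26.5% of the sum in sham to 1.04% to 1.51% at day 14, 5.59% to 12.6% at day 30 and 11.2% to 15.3% after pneumonectomy. A share moves with the other genes of the sum.

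**Figure D4:**
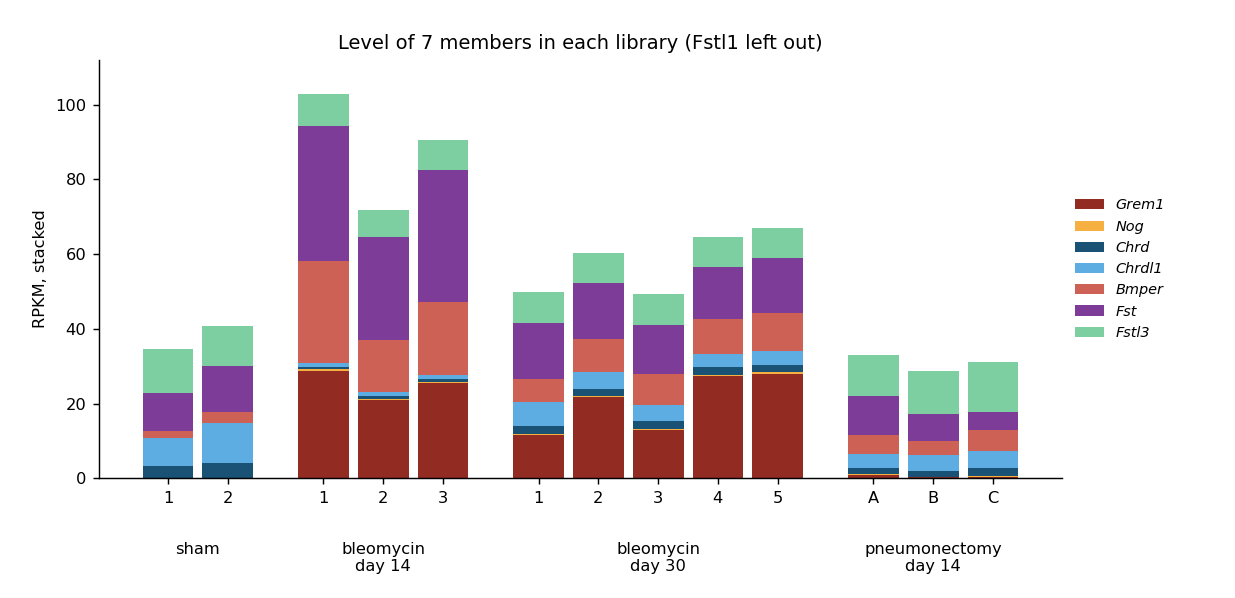
Deposited RPKM of the 7 genes other than Fstl1, stacked in 1 bar per library. The bars reach 71.7 to 103 at bleomycin day 14, where Grem1 makes up 27.9% to 29.2%, and 28.7 to 40.7 in the sham and pneumonectomy libraries, where it makes up at most 2.82%.

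The genes whose levels ran most like each member over the 13 libraries were listed by Pearson correlation of log2 values, with no test, since the libraries share groups. Nearest to Grem1 was Spp1 (osteopontin; r = 0.985), at a mean of 2.61 RPKM in sham, 1118 at day 14, 427 at day 30 and 6.87 after pneumonectomy; macrophages make Spp1 too, and the macrophage sum was 132 to 727 RPKM in the bleomycin libraries. Scube1 (r = 0.966) and Rab13 (r = 0.965) followed. For Chrdl1 they were Efemp1 (r = 0.991), Ppl (r = 0.990) and Timp2 (r = 0.988), and for Chrd they included Cd99l2 and Igfbp5 (both r = 0.984). For Bmper they included Chl1 (r = 0.981) and Cdkn2c (r = 0.975). Fst ran with Rpl10a (r = 0.980), Hint1 (r = 0.971) and Rpl10a-ps1 (r = 0.968), of which the last is a copy of Rpl10a whose reads may be shared with it. Fstl1 had its nearest gene in Fgfr1 (r = 0.926) and Fstl3 in Prss57 (r = 0.985).

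The other genes of the pathway were listed by role. Of 7 tested further antagonists, 6 were called lower and none higher at day 14 against sham, and all 7 were called higher after pneumonectomy. Of all genes, 29.9% were called lower at day 14 and 22.6% higher after pneumonectomy. Their median log2 difference was -1.19 at day 14 and 0.72 after pneumonectomy, beside 0.02 and 0.01 over all genes tested. On the deposited scale these counts were 4 lower at day 14 and 4 higher after pneumonectomy, with none in the other direction. Of all 12938 genes, 2451 were called lower at day 14 and 1762 higher after pneumonectomy on that scale. Sost, a DAN-family antagonist of Wnt and BMP signals, fell from 10.7 to 0.631 RPKM at day 14 (-4.09 ± 0.41), and Twsg1, a partner of chordin, from 62.6 to 27.4 RPKM (-1.42 ± 0.10). At day 30 their means were 8.08 and 54.8 RPKM. From day 14 to day 30, 6 of the 7 were called higher and 0 lower, against 28.9% and 30.7% of all genes. Day 30 against sham gave 2 higher and 2 lower, against 14.8% and 14.1% of all genes. Nbl1 and Crim1 rose by 0.78 and 1.04 after pneumonectomy. The tolloid protease Bmp1 was lower at day 14, as were Pcolce and Pcolce2 (3 of 3, or 2 of 3 on the deposited scale). Pcolce and Pcolce2 are named for enhancing the cutting of procollagen, and the cutting of chordin was not measured. Pcolce2 went from 89.5 to 9.09 RPKM (-3.53 ± 0.24), Pcolce from 117 to 40.8 RPKM (-1.73 ± 0.20) and Bmp1 from 45.4 to 38.6 RPKM (-0.48 ± 0.12). Their means at day 30 were 48.7, 79.8 and 49.4 RPKM. The Bmp1 call was lost on the deposited scale and without sham replicate 2.

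Among 8 tested BMP ligands, 3 were called higher and 3 lower at day 14, under all 3 scalings, with a median of -0.43; of all genes, 33.4% were called higher and 29.9% lower. Gdf10 went from 92.8 to 7.39 RPKM (-3.92 ± 0.32), Bmp4 from 12.2 to 6.22 RPKM (-1.21 ± 0.14), and Bmp5 from 9.80 to 19.7 RPKM (0.76 ± 0.15). Their means at day 30 were 64.1, 10.0 and 18.6 RPKM. After pneumonectomy 4 of the 8 were called higher and none lower, again under all 3 scalings, with a median of 0.72, where 22.6% of all genes were called higher and 19.3% lower. Bmp5 reached 25.9 RPKM (1.61 ± 0.15), Bmp3 17.5 RPKM (1.60 ± 0.24) and Bmp2 5.78 RPKM (1.38 ± 0.24). A further list held 5 tested genes, Inha, Inhba, Inhbb, Gdf11 and Gdf15, of which only Inhba and Inhbb encode activin subunits. Of these 5, 3 were called higher at day 14 and none lower, with a median of 0.93, where 33.4% and 29.9% of all genes were. Inhba, which encodes a subunit of activin A, a ligand of follistatin, went from 1.99 to 12.4 RPKM (2.32 ± 0.37, limma, adjusted p = 0.000220), and Inhbb from 0.332 to 3.37 RPKM (2.79 ± 0.27). Gdf11 rose by 0.93 ± 0.20. Both Inhbb and Gdf11 passed the filter of 1 RPKM in at least 2 libraries through bleomycin libraries alone. After pneumonectomy Gdf15 rose by 1.91 ± 0.20 and Inhbb by 0.86 ± 0.27, although the Inhbb call was lost on the deposited scale, with 1 RPKM added, without sham replicate 2 and without pneumonectomy library C. At day 30, 3 of the 5 were called higher and none lower, against 14.8% and 14.1% of all genes. They were Inhbb (1.99 ± 0.25), Gdf11 and Inha, while Inhba was not called (limma, adjusted p = 0.0854).

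Of 10 tested receptors and co-receptors, 5 were called higher and 4 lower at day 14, where 33.4% of all genes were called higher and 29.9% lower. Tgfbr3, which binds BMPs and inhibins as a co-receptor, went from 31.2 to 7.10 RPKM (-2.36 ± 0.09), and Eng rose from 15.6 to 61.1 RPKM (1.69 ± 0.17). Bmpr2, a type II BMP receptor, rose by 0.90 ± 0.08, from a mean of 6.06 RPKM in sham to 13.5 at day 14. Its mean was 5.73 RPKM at day 30 and 5.91 after pneumonectomy, and the part of the endothelial sum in the Bmpr2 result was not tested. After pneumonectomy 2 were called higher and 2 lower, close to the 22.6% and 19.3% of all genes. Acvr1b was at 0.62, Acvr1 at 0.40 and Rgmb at -0.68. On the deposited scale the counts were 1 higher and 4 lower, where 1762 of all 12938 genes were called higher and 5185 lower. The Acvr1 call was lost on that scale (0.18, adjusted p = 0.118) and the Rgmb call with the 2 groups fitted alone (adjusted p = 0.0767). Among 14 SMADs and BMP targets, 4 were called higher and 4 lower at day 14, a share close to the 63.3% of all genes called in either direction. These counts were 6 and 3 on the deposited scale, where 6193 of all 12938 genes were called higher and 2451 lower. Smad6, an inhibitory SMAD, rose from 2.74 to 22.3 RPKM (2.71 ± 0.19) and Hey1 from 0.615 to 5.52 RPKM (2.69 ± 0.23), whereas Id4 went from 11.8 to 4.55 RPKM (-1.62 ± 0.17). Eng, Smad6 and Hey1 are abundant in endothelium, the endothelial sum was 269 to 533 RPKM in this group, and its part in these results was not tested. After pneumonectomy 8 of the 14 were called higher and none lower, where 22.6% of all genes were called higher and 19.3% lower. But on the deposited scale this was 4 higher and 4 lower, where 1762 of all 12938 genes were called higher and 5185 lower. Smad7, another inhibitory SMAD, rose to 20.9 RPKM (2.11 ± 0.15), and Id3, a target of BMP signals, to 89.1 RPKM (1.08 ± 0.18). At day 30 none of the 14 was called higher and 3 were called lower, against 14.8% and 14.1% of all genes. The 3 became 0 on the deposited scale, where 957 of all 12938 genes were called lower.

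**Figure D5:**
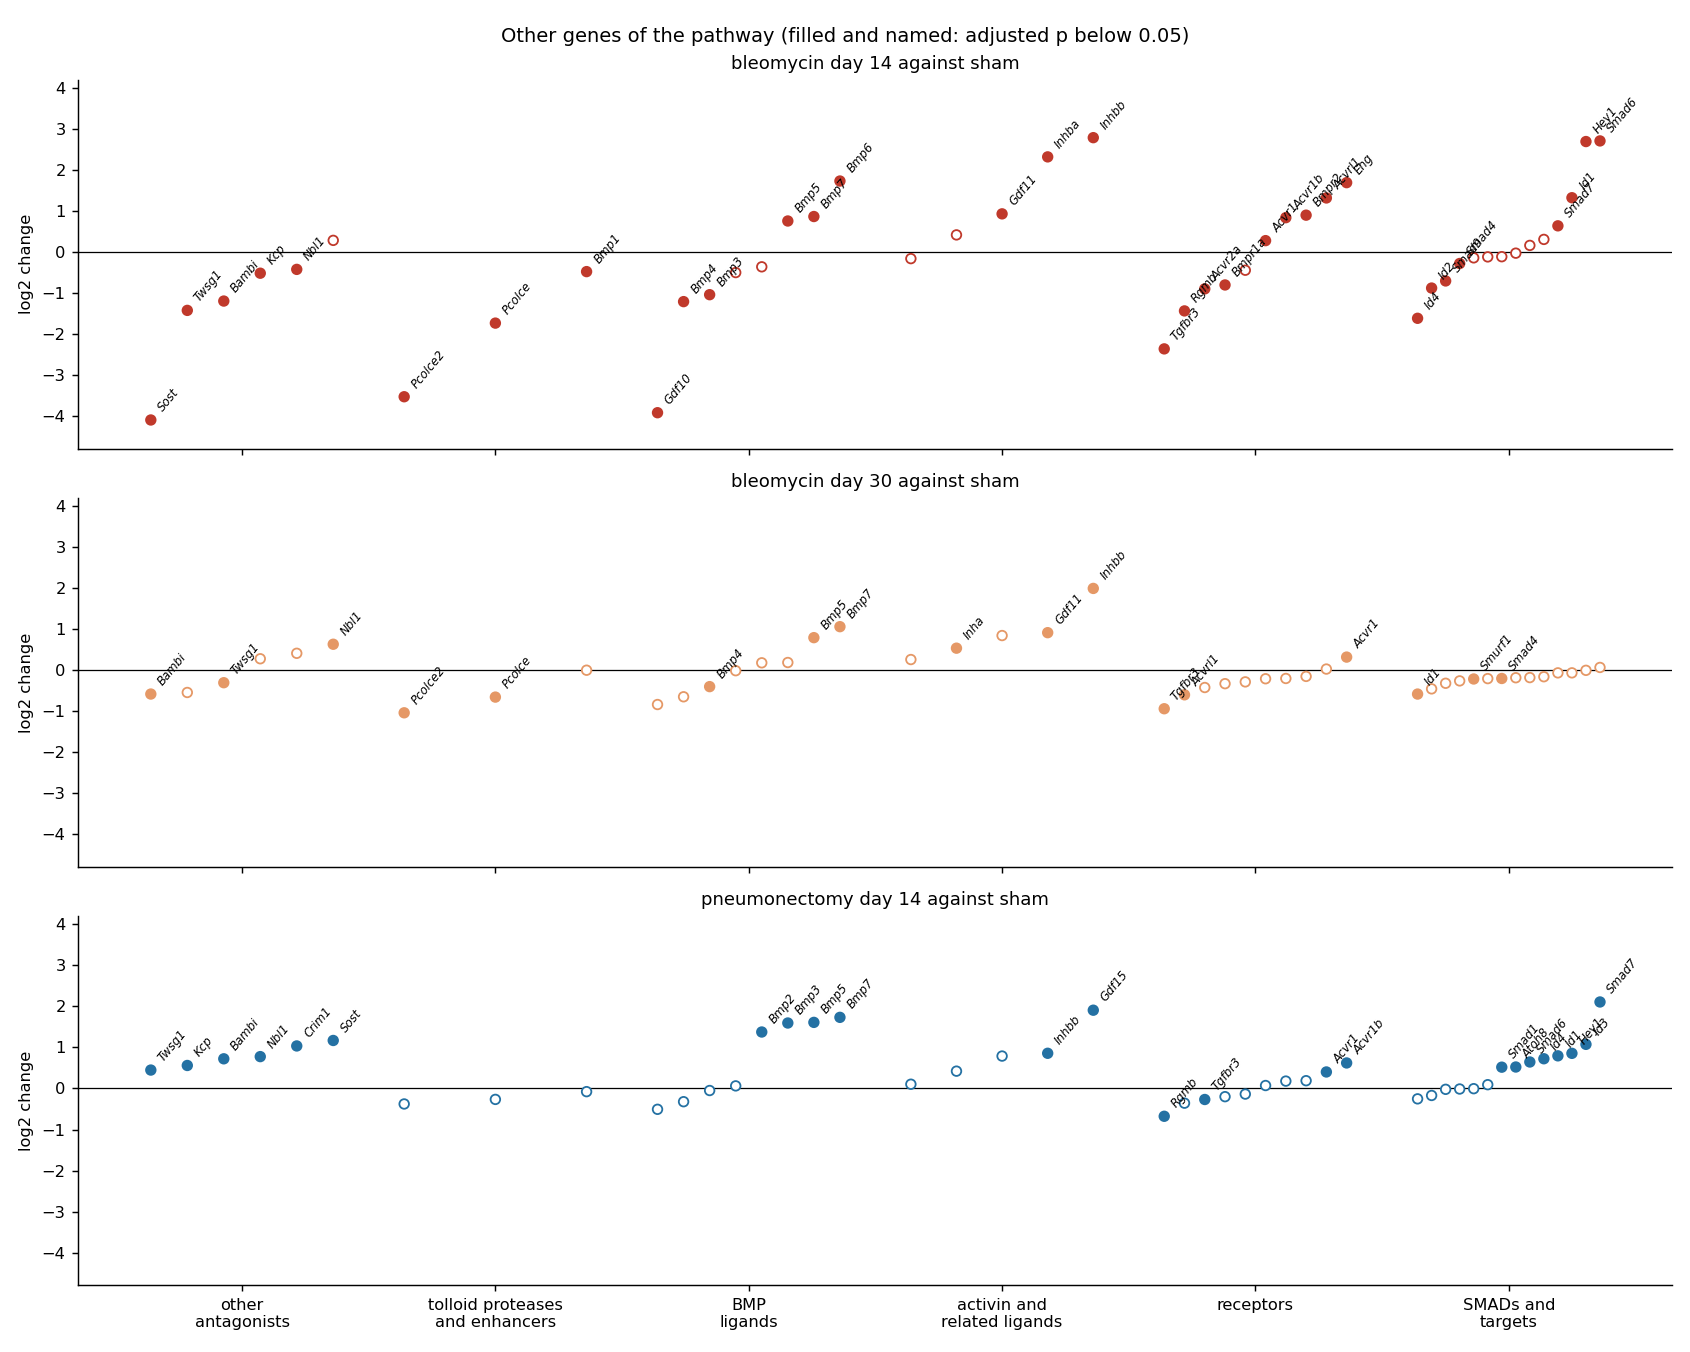
Log2 difference from sham of the other pathway genes (scaled RPKM plus 0.1; points are genes, filled and named where the adjusted p is below 0.05; 6 of the 7 further antagonists are drawn). At day 14 Sost, Gdf10 and Pcolce2 are lowest at -4.09, -3.92 and -3.53, and after pneumonectomy none of the antagonists drawn is called lower.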

How the data were processed

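The deposited values are RPKM computed by the authors for each gene and library, on mm10 and GRCm38 per the submitters' processing notes; the aligner, counter and annotation are not given in the sources used here. Libraries were grouped by their labels, and the 3 pneumonectomy columns, which carry no replicate number, are called A, B and C. Gene loci are from GENCODE M21 and promoters from RefSeq on GRCm38.p6. Estimated reads were recovered from the lowest RPKM values; they are estimates, and PCR copies count as separate reads.

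The filter kept the 12938 genes that reached 1 RPKM in 2 or more libraries; RPKM was scaled by trimmed-mean factors, 0.1 was added, and log2 values of all 13 libraries entered 1 limma 3.58.1 model in R 4.3.3 (trend, robust), tested on simulated data. Sham has 2 libraries, so its spread is taken from all groups. P-values are two-sided and Benjamini-Hochberg adjusted over all genes, called at 0.05. The 8 genes and the lists were chosen with earlier results of these data known. Named were all 8 genes, the 3 nearest genes of each by correlation (at least 5 RPKM in a group mean), and up to 3 called genes of each pathway list with the smallest p; a few of these are not reported here. Alternatives were other pseudocounts, filters, scalings, groups, a replicate block and each library left out. All 37 mitochondrial genes are listed at 0. Repeated symbols (131) were kept apart.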

Additional observations from a re-analysis of the deposited data

How the results depend on the processing

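Of 624 alternative values for the 7 tested genes, 592 kept direction and call, 16 lost the call, 9 gained it and 7 changed sign. Every day 14 call against sham held except that of Fstl1. With 1 RPKM or 0.01 RPKM added, the Grem1 difference at day 14 was 4.43 or 8.47. RPKM as deposited shifts the median of all genes by 0.26 at day 14, 0.11 at day 30 and -0.21 after pneumonectomy against sham, by 0.47 and 0.34 for days 14 and 30 against pneumonectomy and by -0.13 between days, and upper-quartile scaling shifts pneumonectomy against sham by -0.12 and days 14 and 30 against pneumonectomy by 0.13 and 0.15. The share of called genes that were higher went with deposited values from 52.7% to 71.6%, 51.2% to 76.4%, 54% to 25.4%, 51.1% to 77.4%, 49.6% to 81.1% and 48.5% to 34.8% in the same order, and upper-quartile scaling gave 35.3% for pneumonectomy against sham and 66.2% for day 30 against pneumonectomy. With deposited values Fstl1 at day 14 against pneumonectomy turned to 0.062. With the same values, at day 30 against pneumonectomy Chrd turned to 0.23, Chrdl1 to 0.073 and Fstl1 to 0.25. There 5 members were called in place of 3. With upper-quartile scaling Chrd turned to 0.046 and Fstl1 to 0.055. Leaving out each library gave Chrd at -0.23 to 0.010, the highest without pneumonectomy library C. The cause was not tested.

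A filter of 5 RPKM tests fewer genes and called 4007 at day 14, 1903 at day 30 and 2624 after pneumonectomy against sham, 4363 and 3480 for days 14 and 30 against pneumonectomy, and 3842 between days. It left 2 of the 8 genes below the filter, and no filter left 0. With sham and pneumonectomy fitted alone, 3481 genes were called, against 5430. Leaving out each library gave 3358 to 5044 genes and 3 to 6 of the members for pneumonectomy against sham (lowest without sham replicate 2), 1802 to 4080 genes at day 30 against sham (1802 without sham replicate 2, 2351 without sham replicate 1, 3731 with all), and 2 to 5 members for day 30 against pneumonectomy. The lone sham library is then assumed to vary like the other groups. The replicate numbers do not pair the samples: same-numbered libraries of days 14 and 30 correlated at 0.01, -0.04 and 0.14. With a replicate block, day 30 against sham called 367 genes and 2 of the members in place of 5, losing Chrdl1 (-0.91), Bmper (1.54) and Fstl3 (-0.52). Depth limits Grem1 in sham and Nog throughout.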

Other observations

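Within the bleomycin day 30 group, replicate 1 had the lowest Grem1 (11.7 RPKM), Nog (0.182) and Bmper (6.16) and the highest Chrd (2.18) and Chrdl1 (6.30). It also had the lowest macrophage sum of its group, 207 RPKM against 422 to 727 in the other 4. Most of that 207 was Lyz2 (149 RPKM), and Ptprc in this library was 0.955 RPKM, within the 0.827 to 1.08 RPKM of the group. Replicate 1 was singled out after its values were seen. The macrophage sum and Grem1 did not run in the same order in this group. Replicate 3 had the highest sum (727 RPKM) with Grem1 at 13 RPKM. Replicates 4 and 5 had the highest Grem1 (27.4 and 28 RPKM) at sums of 422 and 512 RPKM. A Dixon test of the 8 genes in this group found 0 outliers.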
